A study of Mus musculus with 6 samples.

Results

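The chemokine genes examined here were Ccl2, Ccl7, Cxcl1, Cxcl5, Cxcl12, Cxcl16, Cx3cl1 and Ccl20, a set of signalling genes that fibroblasts are known for. They were taken by symbol from the RNA count table, and all 8 were found among its 24516 genes. Expression was measured by poly(A) RNA sequencing in 1 mouse embryonic fibroblast line, iMGT-Myh6-eGFP-MEF. In every group, controls included, doxycycline at 1 ug/mL switched on Mef2c, Gata4 and Tbx5 (MGT), transcription factors used to turn fibroblasts towards cardiomyocytes. One day earlier the cells had received an siRNA against Junb, which encodes one of the JUN proteins that build AP-1 (siJunb), against H1f0, the gene of the linker histone H1.0 (siH1f0), or a control siRNA (siControl), with 2 libraries a group. The libraries carry day 1 and biological replicate labels, whereas the text on the series speaks of day 3 and a GFP sort, and nothing says whether replicates were separate cultures, so p-values measure the spread between these libraries.

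Chemokines are small secreted proteins that bind G protein-coupled receptors and guide migrating cells along gradients held on heparan sulfate. The inflammatory members are switched on by NF-kB and AP-1 after IL-1, TNF or Toll-like receptor signals, and many of their mRNAs are short-lived. Fibroblasts use them to call in monocytes and neutrophils, while CXCL12 is made constitutively by stromal cells and holds progenitor cells in place.

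The deepest and shallowest libraries held 85979630 and 48690447 counts. Both siRNA targets were low where intended. Junb was at 10.5 and 8.73 CPM (counts scaled by the total of the library) in siJunb and 39.5 and 35.6 CPM in siControl, a log2 fold change of -1.93 ± 0.09 (SE). H1f0 was at 52.3 and 55.3 CPM in siH1f0 and 808 and 741 CPM in siControl, a log2 fold change of -3.86 ± 0.06. It was also lower in siJunb, by -0.23 on the log2 scale (edgeR adjusted p = 0.0210). Junb was at 30.4 and 31.7 CPM in siH1f0, below both siControl libraries. That difference of -0.29 on the log2 scale did not pass (edgeR adjusted p = 0.0778). Of 11 fibroblast markers 9 passed the count filter, and the summed level ran from 11068 to 13471 CPM. Fn1 and Vim led this sum, averaging 7363 and 2718 CPM over all libraries. Dcn and Col3a1 averaged only 9.11 and 1.38 CPM, and Thy1 and Lum held at most 2 counts in any library. Of 12 leukocyte markers 4 passed the filter, and Ptprc, Cd3e and Ly6g were at 0 in every library. The leukocyte sum was 15.3 and 15.5 CPM in siJunb, 11.9 and 13.7 CPM in siH1f0, and 15.8 and 11.7 CPM in siControl, most of it Cd14. The endothelial sum stayed between 0.421 and 0.745 CPM, with 1 of 6 genes tested and not called, and with Cdh5 and Kdr at no more than 2 counts.

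The start regions of Cxcl1, Cx3cl1 and Cxcl12 are shown because these genes passed the test in at least 1 comparison and have an entry among the promoters. RefSeq promoters (GRCm38.p6) matched 4 of the 8 members: Cxcl1, Cxcl12, Cx3cl1 and Ccl20. The 250 bases before the annotated start, on the plus strand for each gene, were searched on both strands for the NF-kB consensus and for the AP-1 motif TGANTCA. Capitals mark matches.
Cxcl1 (chr5:90890995-90891244): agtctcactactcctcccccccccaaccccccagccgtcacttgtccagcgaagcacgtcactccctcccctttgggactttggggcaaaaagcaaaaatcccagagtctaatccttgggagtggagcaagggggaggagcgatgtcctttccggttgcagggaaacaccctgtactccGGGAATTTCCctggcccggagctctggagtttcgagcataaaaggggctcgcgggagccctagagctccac
Cx3cl1 (chr8:94771930-94772179): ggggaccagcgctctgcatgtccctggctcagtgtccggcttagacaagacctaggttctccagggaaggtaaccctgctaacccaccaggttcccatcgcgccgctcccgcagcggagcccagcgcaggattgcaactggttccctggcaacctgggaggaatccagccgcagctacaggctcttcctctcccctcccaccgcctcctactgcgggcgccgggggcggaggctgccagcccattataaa
Cxcl12 (chr6:117168285-117168534): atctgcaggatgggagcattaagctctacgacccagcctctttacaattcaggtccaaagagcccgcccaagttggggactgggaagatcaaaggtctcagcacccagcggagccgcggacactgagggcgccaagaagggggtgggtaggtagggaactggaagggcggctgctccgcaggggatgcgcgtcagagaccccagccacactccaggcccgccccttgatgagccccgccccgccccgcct
Cxcl1 held an NF-kB match, GGGAATTTCC, at positions -71 to -62 relative to the start. Ccl20 held one on the opposite strand, at positions -80 to -71. Neither Cx3cl1 nor Cxcl12 held an NF-kB match in this window, and none of the 4 held TGANTCA. Among all 32536 RefSeq promoter windows of this length 5.03% held the NF-kB consensus and 6.73% held TGANTCA.

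**Figure D1:**
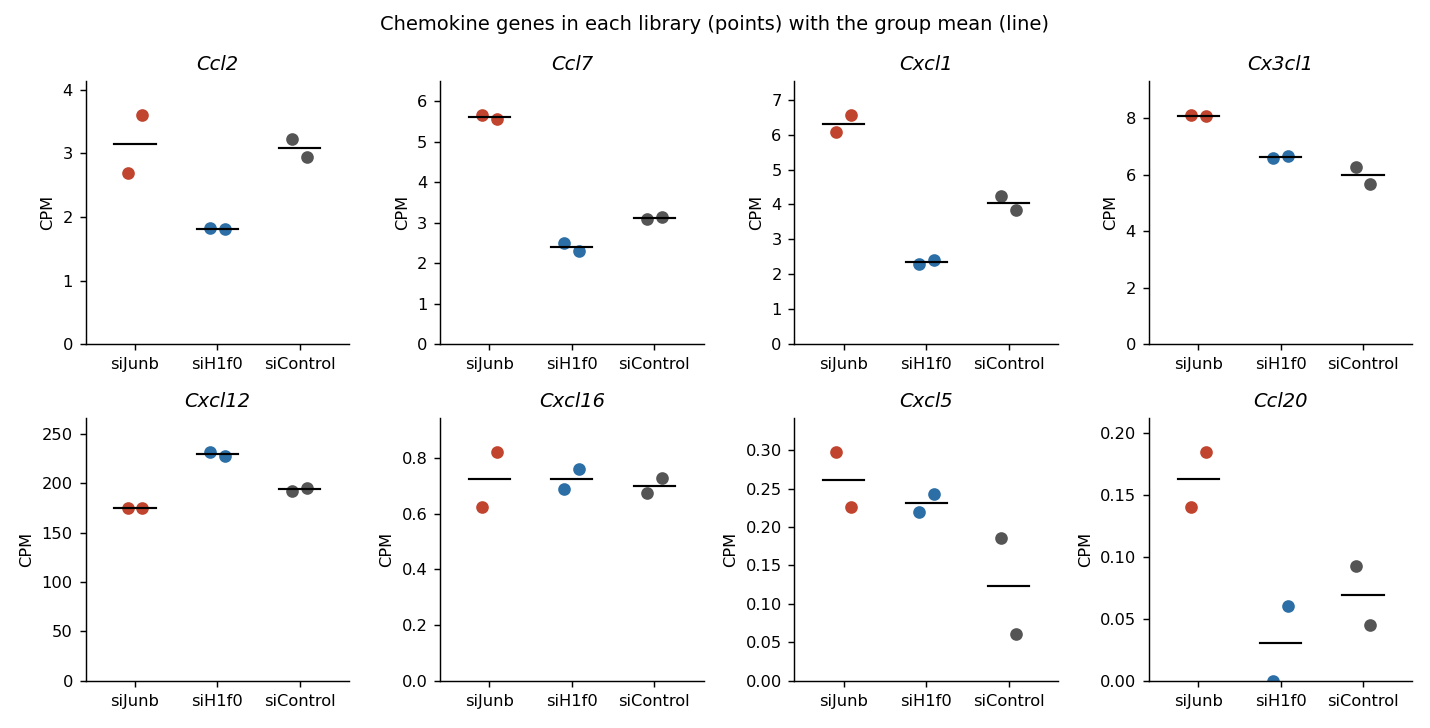
Level of each chemokine gene in CPM (linear axis from 0, own scale per gene) in siJunb, siH1f0 and siControl. Points are libraries and lines are group means. Ccl7 and Cxcl1 stand highest in siJunb and lowest in siH1f0, Ccl2 is low in siH1f0, and Cxcl12 is highest in siH1f0.

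The plot of levels by library shows the order of magnitude of each gene. To compare genes, CPM were also divided by gene length in kilobases (RPKM). By RPKM Cxcl12 led in every group, at 24.4 ± 0.0924 in siJunb, 32.0 ± 0.405 in siH1f0 and 27.0 ± 0.222 in siControl (SD, n = 2 each). It made up 87.5% to 94.3% of the summed CPM of the 8 genes. Next in siJunb came Ccl7 (7.02 RPKM), Cxcl1 (6.65 RPKM), Ccl2 (3.90 RPKM) and Cx3cl1 (2.57 RPKM), with no overlap between neighbours. The same order held in siH1f0, at 3.01, 2.48, 2.25 and 2.10 RPKM. In siControl Cxcl1 (4.26 RPKM) stood above Ccl7 (3.90 RPKM) and Ccl2 (3.82 RPKM), whose libraries overlapped, and above Cx3cl1 (1.90 RPKM). Cxcl16 (0.286 to 0.296 RPKM as group means) came sixth in all groups. Cxcl5 and Ccl20 were last, and their libraries overlapped in siJunb and in siControl. The summed level of the 7 genes other than Cxcl12 was 23.6 and 25.02 CPM in siJunb, 14.1 and 14.2 CPM in siH1f0, and 17.8 and 16.4 CPM in siControl.

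Setting siJunb against siControl addresses how the chemokine genes stand when Junb is reduced during MGT induction. Of the 8 genes, 7 passed the count filter; Ccl20 did not. Ccl7, Cxcl1 and Cx3cl1 rose, by 1.85-fold, 1.59-fold and 1.38-fold, and no member fell (edgeR's quasi-likelihood F test over all genes, called at an adjusted p under 0.05). Over all 13427 tested genes 8.63% were called higher and 7.82% lower. Scaled by total counts alone, the calls over all genes were 884 higher and 1369 lower, against 1159 and 1050. The members were 3 higher and 0 lower with DESeq2, limma-voom and total counts too. At an unadjusted p under 0.05 Cxcl12 was the 1 member lower. The spread of the fold changes among the 7 was wide, with Ccl7 the highest of those called and Ccl2 close to 0. For 5 of the 7 every siJunb library lay on one side of both siControl libraries, as for 57.5% of all genes.

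The ligands of CCR2, the receptor that draws monocytes, did not move alike. Ccl7 (also called MCP-3; chromosome 11, 82045712 to 82047525) was at 5.65 and 5.57 CPM in siJunb, against 3.09 and 3.14 CPM in siControl. Both siJunb libraries lay above both siControl libraries, and the log2 fold change was 0.88 ± 0.12 (SE; edgeR adjusted p = 0.00248). The neighbouring Ccl2 (MCP-1, the best known monocyte attractant; chromosome 11, 82035577 to 82037452) was at 2.69 and 3.59 CPM in siJunb, against 3.22 and 2.94 CPM in siControl. These groups overlapped, with the siJunb libraries on either side of the siControl pair. The log2 fold change of Ccl2 was 0.05, with a 95% interval from -0.33 to 0.43, and its sign turned without siJunb 2 (-0.16) or siControl 2 (-0.01).

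Among ligands of CXCR2, which attracts neutrophils, Cxcl1 (KC in mouse; chromosome 5, 90891245 to 90893121) was at 6.07 and 6.55 CPM in siJunb, against 4.25 and 3.85 CPM in siControl. The groups did not overlap, and Cxcl1 rose by a log2 fold change of 0.67 ± 0.12 (SE; edgeR adjusted p = 0.00703). Without siJunb 1 or siJunb 2 its call was lost (adjusted p = 0.0556 and 0.0793), at log2 fold changes of 0.73 and 0.62. Cxcl5 (LIX in mouse; chromosome 5, 90759298 to 90761625) had only 19 and 11 counts in siJunb and 16 and 4 counts in siControl. Its log2 fold change of 1.06 had a 95% interval from -0.22 to 2.34, so no difference was detectable at this depth. The value was 2.12 without siControl 1 and 0.54 without siControl 2, and passed in neither fit. Ccl20 (chromosome 1, 83116766 to 83119167), the ligand of CCR6 on lymphocytes and dendritic cells, had 9 and 9 counts in siJunb and 8 and 3 counts in siControl and was not tested.

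The members made as membrane-bound proteins were Cx3cl1 and Cxcl16, whose stalks are cut by the proteases ADAM10 and ADAM17. Cx3cl1 (fractalkine, the ligand of CX3CR1; chromosome 8, 94772180 to 94782427) was at 8.09 and 8.07 CPM in siJunb, against 6.27 and 5.68 CPM in siControl. It rose by a log2 fold change of 0.47 ± 0.10 (SE; edgeR adjusted p = 0.0143), with no overlap of the groups. That call was lost without siJunb 1 (adjusted p = 0.112) and without siJunb 2 (0.104), while the fold change kept its size. Cxcl16, the ligand of CXCR6 (chromosome 11, 70454389 to 70459984), was at 0.626 and 0.822 CPM in siJunb, against 0.675 and 0.727 CPM in siControl. Its groups overlapped, and the log2 fold change of 0.07 had a 95% interval from -0.54 to 0.68. By gene span, introns included, Cxcl16 shares 552 bases with Zmynd15, which had 5 to 36 counts a library. Cx3cl1 shares 1327 with the lncRNA gene Gm51543, which is not among the counted symbols. How reads in those stretches were assigned is not known without the annotation and the strand setting.

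Cxcl12 (SDF-1, the ligand of CXCR4 and of the scavenger receptor ACKR3; chromosome 6, 117168535 to 117181368) was at 174 and 175 CPM in siJunb, against 192 and 195 CPM in siControl. The siJunb libraries lay below the siControl pair, but the difference of -0.11 ± 0.04 on the log2 scale (SE) did not pass the test (edgeR adjusted p = 0.126). The difference was -0.13 when siControl 1 was left out and -0.10 when siControl 2 was left out, close to the -0.11 with all libraries. RefSeq lists 3 transcripts of Cxcl12, which gene counts do not separate. In bulk libraries fewer expressing cells and less RNA per cell cannot be told apart.

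**Figure D2:**
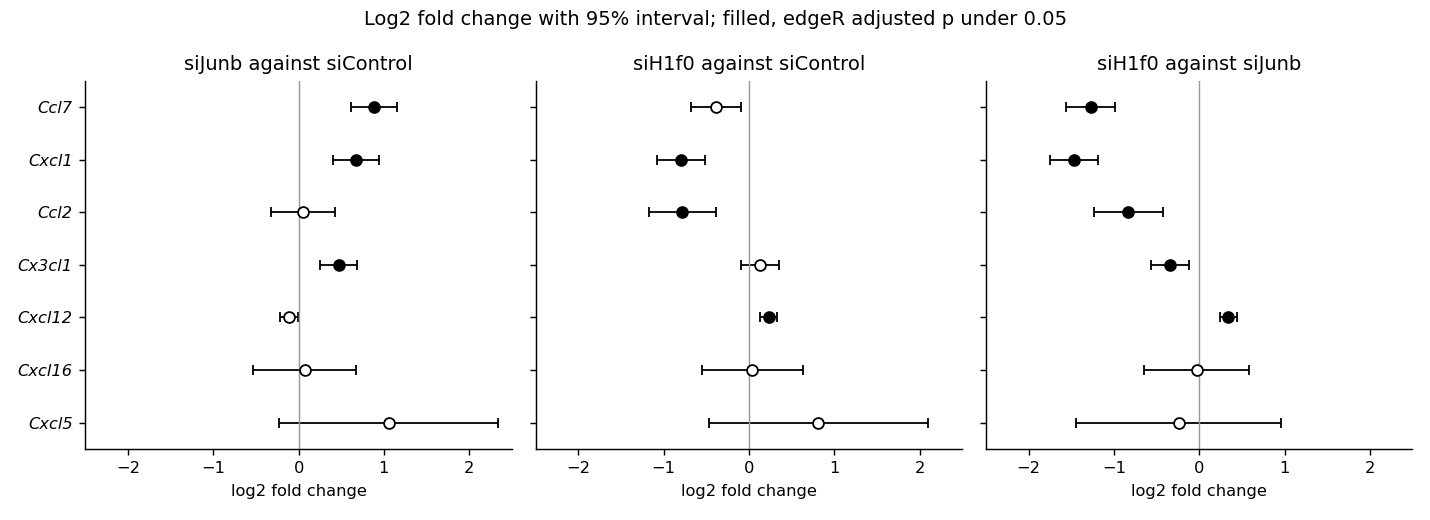
Log2 fold change (horizontal axis) of the 7 tested chemokine genes in siJunb against siControl, siH1f0 against siControl and siH1f0 against siJunb, with 95% intervals from the edgeR fit. Filled points passed an adjusted p under 0.05: 3, 3 and 5 genes. The intervals of Cxcl5 span more than those of any other gene shown.

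Reducing H1f0 was set against the same controls. In siH1f0 Cxcl1 and Ccl2 fell, to 0.576 and 0.583 of the siControl level, and Cxcl12 rose 1.17-fold. Over all 13427 genes edgeR called 2.27% higher and 4.27% lower. DESeq2 and limma-voom called the same numbers of members, 1 higher and 2 lower. With only the 4 libraries of these groups Cxcl1 alone was called, and without siH1f0 1 or siH1f0 2 no member was (0 called by edgeR with 5 libraries, against 1 higher and 3 lower at an unadjusted p under 0.05 with all 6). The libraries did not overlap for 6 of the 7 tested genes, against 50.7% of all genes. In this comparison 2 lay within 0.13 of 0 on the log2 scale, Cxcl16 and Cx3cl1.

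Cxcl1 was at 2.29 and 2.42 CPM in siH1f0 and 4.25 and 3.85 CPM in siControl, a log2 fold change of -0.80 ± 0.13 (SE; edgeR adjusted p = 0.00835). Ccl2 was at 1.82 and 1.81 CPM in siH1f0 and 3.22 and 2.94 CPM in siControl, a log2 fold change of -0.78 ± 0.17 (adjusted p = 0.0349). For both genes the siH1f0 libraries were close to each other and below the siControl libraries. A fit to siH1f0 and siControl alone left Ccl2 short of the threshold (adjusted p = 0.0534), as did leaving out siH1f0 1 (0.231) or siH1f0 2 (0.224). The Cxcl1 call was lost without siH1f0 1 (adjusted p = 0.114) and without siH1f0 2 (0.0843). Ccl7 was at 2.51 and 2.30 CPM in siH1f0 and 3.09 and 3.14 CPM in siControl, and its difference of -0.39 ± 0.13 on the log2 scale did not pass (adjusted p = 0.112).

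Cxcl12 was at 231 and 227 CPM in siH1f0 and 192 and 195 CPM in siControl, a log2 fold change of 0.23 ± 0.04 (SE; edgeR adjusted p = 0.0212). Both siH1f0 libraries lay above both siControl libraries. In a fit to siH1f0 and siControl alone it missed the threshold (adjusted p = 0.0877), and so it did without any 1 siJunb or siH1f0 library (0.0885 to 0.266), though the fold change stayed between 0.21 and 0.24. Cx3cl1 was at 6.57 and 6.65 CPM in siH1f0 and 6.27 and 5.68 CPM in siControl (log2 fold change 0.13, 95% interval -0.09 to 0.35). Cxcl16 was at 0.690 and 0.760 CPM in siH1f0 and 0.675 and 0.727 CPM in siControl, and these groups overlapped (log2 fold change 0.04, 95% interval -0.55 to 0.64). Its sign turned without siH1f0 2 (-0.03) and without siControl 1 (-0.03).

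At the lowest levels, Cxcl5 had 13 and 16 counts in siH1f0 and 16 and 4 counts in siControl, a log2 fold change of 0.82 with a 95% interval from -0.47 to 2.11 (1.87 without siControl 1 and 0.30 without siControl 2, neither past the threshold). Ccl20 had 0 and 4 counts in siH1f0 and 8 and 3 counts in siControl. The 0 in siH1f0 1 allows up to 0.0505 CPM (3 counts). The exact 95% Poisson intervals of siControl 1, 0.0402 to 0.183 CPM, and of siControl 2, 0.00937 to 0.133 CPM, both include that limit. A difference of Ccl20 from siControl was therefore not detectable at this depth. These bounds cover counting error only. Among all values from 1 to 20 counts 59.0% were even, and the cause of this was not tested, so the bounds may be too narrow.

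The direct comparison of siH1f0 with siJunb tests the difference between the knockdowns, with siControl entering through the shared estimate of the spread. Fitted to the 4 knockdown libraries alone, 6416 genes were called in place of 3484, and the members were again 1 higher and 4 lower. Cxcl1, Ccl7, Ccl2 and Cx3cl1 were lower in siH1f0 and Cxcl12 was higher, so 5 of the 7 tested genes passed, against 25.9% of all genes in either direction. Over all genes 13.8% were called lower and 12.2% higher (1847 and 1637 genes). The libraries did not overlap for 5 of the 7, against 72.5% of all genes. Scaled by total counts alone, the calls over all genes were 1340 lower and 2222 higher. By total counts alone 3 members were lower and 1 higher, since Cx3cl1 lost its call.

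Cxcl1 had the largest difference of the 7, with 2.29 and 2.42 CPM in siH1f0, against 6.07 and 6.55 CPM in siJunb (log2 fold change -1.47 ± 0.12 SE, edgeR adjusted p = 1.23e-04). Ccl7 followed, at 2.51 and 2.30 CPM in siH1f0, against 5.65 and 5.57 CPM in siJunb (-1.27 ± 0.13, adjusted p = 2.41e-04). Both genes passed whichever of the 6 libraries was left out, as did Cxcl12 (0.34 ± 0.04, adjusted p = 0.00101), at 231 and 227 CPM in siH1f0, against 174 and 175 CPM in siJunb. Ccl2, at 1.82 and 1.81 CPM in siH1f0, against 2.69 and 3.59 CPM in siJunb, was lower by a log2 fold change of -0.83 ± 0.18 (adjusted p = 0.00992). Its call was lost without siJunb 2 (-0.62, adjusted p = 0.0824), siH1f0 1 (0.0693) or siH1f0 2 (0.0701). Cx3cl1, at 6.57 and 6.65 CPM in siH1f0, against 8.09 and 8.07 CPM in siJunb, was lower by -0.34 ± 0.10 (adjusted p = 0.0331). It was lost with total counts alone (-0.29, adjusted p = 0.0633), with DESeq2 (0.0703) and without any 1 siH1f0 or siJunb library (0.145 to 0.176). Cxcl16 (-0.03) and Cxcl5 (-0.24) had 95% intervals from -0.65 to 0.59 and from -1.45 to 0.96. The sign of Cxcl16 turned by total counts alone (0.02), without siJunb 2 (0.16) and without siH1f0 1 (0.04). Ccl20, not tested, had 0 and 4 counts in siH1f0, against 9 and 9 counts in siJunb. By counting error alone, its 95% intervals were 0.0644 to 0.267 CPM in siJunb 1 and 0.0845 to 0.351 CPM in siJunb 2. That of siH1f0 1 ended below both, at 0.0621 CPM, but that of siH1f0 2, 0.0166 to 0.156 CPM, overlapped both.

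**Figure D3:**
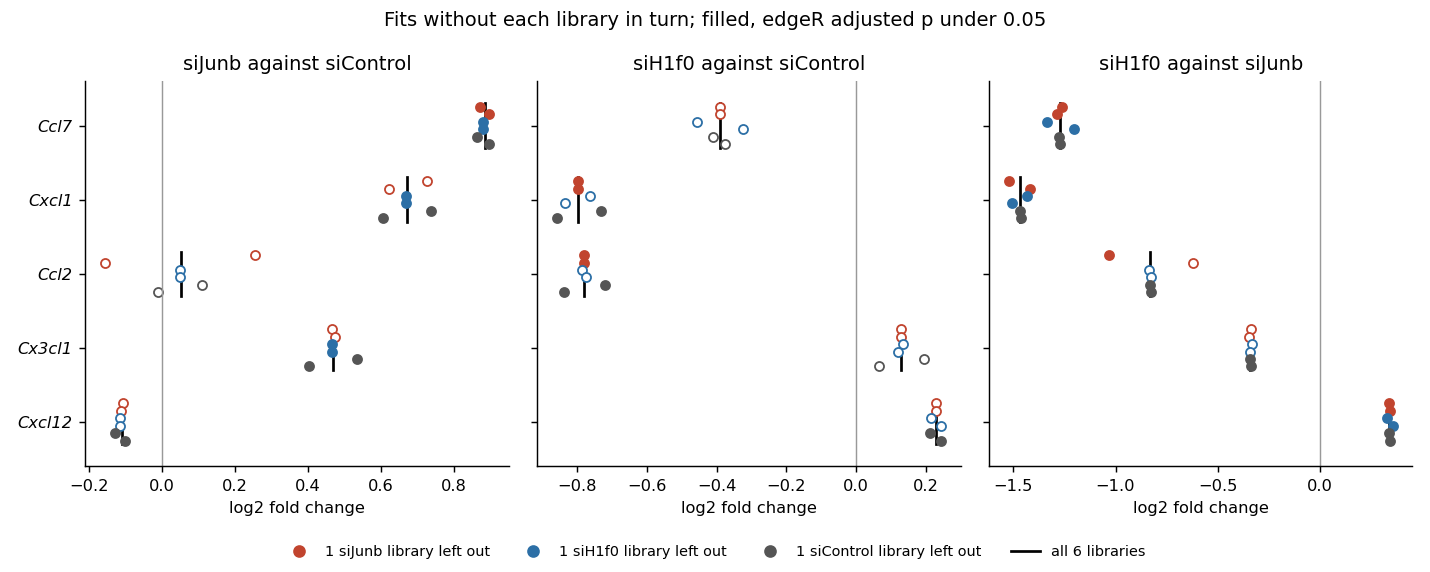
Log2 fold change (horizontal axis) of Ccl7, Cxcl1, Ccl2, Cx3cl1 and Cxcl12 when each of the 6 libraries is left out, coloured by the group of the missing library; black ticks are the fits to all 6, and filled points have an adjusted p under 0.05. Directions hold except for Ccl2 in siJunb against siControl, while many calls lose significance when a siJunb or siH1f0 library is missing.

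The plot of fits without each library shows that each of the 5 genes kept its sign in all 6 such fits wherever it had been called with all libraries. Leaving out a library leaves its group with 1, which the fit takes to vary like the others. The 3 comparisons share groups: the siControl libraries serve both knockdowns, so the opposite signs of Cxcl1 against siControl (0.67 in siJunb, -0.80 in siH1f0) are not independent, and the direct comparison is the test of that difference.

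Genes whose pattern over the 6 libraries came closest to each member were found by the root mean square difference of centred log2 CPM among 9910 candidate genes. Closest to Cxcl1 was Ptx3, the secreted pattern-recognition protein pentraxin 3, at a distance of 0.0497, followed by the metallothionein gene Mt2 at 0.0780. Ptx3 was at 65.1 ± 1.51 CPM in siJunb, 24.1 ± 0.641 CPM in siH1f0 and 39.1 ± 3.87 CPM in siControl (SD, n = 2 each). Closest to Ccl7 were Hmga2, an architectural chromatin protein gene (0.0674), and the cytochrome P450 gene Cyp1b1 (0.0930). Closest to Ccl2 were Dnm1, the gene of dynamin-1 (0.0875), and the potassium channel gene Kcnc4 (0.106). For Cxcl5 the nearest were Dcn, the matrix proteoglycan decorin (0.491), and the collagen gene Col8a1 (0.494), both far off. Group means of Cxcl12, Cx3cl1 and Cxcl16 spanned less than 0.5, and no match was sought for them.

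The other 30 chemokine genes listed were mostly silent. In all, 22 of 38 chemokine genes had any count and 11 passed the filter. Several neighbours and close relatives of the members were at 0 in every library: Ccl11 and Ccl12, and Cxcl2 and Cxcl3. The best expressed of the other chemokine genes were Ccl25, at 4.44 ± 0.144 CPM in siJunb, 5.27 ± 0.684 CPM in siH1f0 and 6.00 ± 1.09 CPM in siControl, and Ccl28, which averaged 0.580, 0.858 and 0.923 CPM in the same groups. Of the 4 tested, edgeR, DESeq2 and limma-voom called 0 in each comparison, with 2 lower in siJunb against siControl, 0 in siH1f0 against siControl and 1 lower in siH1f0 against siJunb at an unadjusted p under 0.05. The median log2 change of the 4 was -0.53, -0.29 and 0.28 in these comparisons, against 0.00 over all genes.

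Among receptors of the members, Ccr2, Cxcr2, Cxcr4 and Cx3cr1 had at most 11 counts in any library and were not tested. Cxcr6 had 4 to 21 counts and Ccr6 had 30 to 43 counts, and neither passed in any comparison. Of 23 receptor genes 7 were tested. Between the knockdowns 2 were higher in siH1f0, the atypical receptor gene Ccrl2 (8.19 CPM against 5.64 CPM in siJunb; log2 fold change 0.50 ± 0.12, edgeR adjusted p = 0.0184) and Ccr10 (0.445 against 0.168 CPM in siJunb; 1.34 ± 0.41, adjusted p = 0.0414), where 12.2% of all genes were called higher. Ccrl2 lost its call without siJunb 1 (0.33, adjusted p = 0.152), siH1f0 1 (0.0936) or siH1f0 2 (0.109). Ccr10 lost it without any 1 siJunb or siH1f0 library (0.109 to 0.237) and with the replicate block (0.0608), and DESeq2 gave it no adjusted p. Neither passed against siControl. Ackr3, which clears CXCL12, had 57 and 34 counts in siJunb, 94 and 48 counts in siH1f0 and 84 and 88 counts in siControl, and did not pass.

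Of 14 tested genes for chemokine processing and presentation, 1 rose and 1 fell in siJunb against siControl, beside 8.63% and 7.82% of all genes. Ndst1, a heparan sulfate sulfotransferase gene, rose (0.43), and Sdc4, the heparan sulfate proteoglycan syndecan-4, fell (-0.19). The Sdc4 call was lost with only the 4 libraries compared and with the replicate block. In siH1f0 against siControl Sdc4 rose by 0.32 and Sdc2 by 0.23 (edgeR adjusted p = 0.00608 and 0.0245), beside 2.27% of all genes. Ext2, a heparan sulfate polymerase gene, fell by 0.46 (edgeR adjusted p = 9.49e-04), beside 4.27% of all genes. With only the 4 libraries compared, and with the replicate block, 1 of the 14 rose and 1 fell. The list medians were 0.06 and 0.07. In siH1f0 against siJunb 4 of the 14 were higher, Mmp2, Sdc1, Sdc2 and Sdc4, beside 12.2% of all genes. Lower were 3, Rhbdf2, Mmp14 and Ext2, beside 13.8% of all genes. Ext2 differed by a log2 fold change of -0.60 and Sdc4 by 0.50. Rhbdf2, a partner of ADAM17, differed by -0.42 (edgeR adjusted p = 0.00430). In the main fit Adam10 and Adam17 did not pass in any comparison (edgeR adjusted p of at least 0.0594). Total counts alone and DESeq2 each called 4 of the 14 higher in siH1f0 against siControl, in place of 2.

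Of 15 NF-kB genes, all tested, 5 rose in siJunb against siControl: Nfkbib (0.33), Ikbkg (0.30), Nfkb2 (0.24), Nfkbiz (0.20) and Chuk (0.19), where 8.63% of all genes were called higher. In siH1f0 against siControl 4 fell: Nfkbia (-0.45), Nfkbiz (-0.37), Relb (-0.36) and Nfkb1 (-0.25), where 4.27% of all genes were called lower. In siH1f0 against siJunb 8 were lower, by 0.17 to 0.57 on the log2 scale, and 0 higher, where 13.8% of all genes were called lower. Here edgeR at an unadjusted p under 0.05 also gave 0 higher, as did DESeq2 and limma-voom. The members that moved include inhibitors as well as activators: Nfkbia and Nfkbib encode IkB proteins that hold NF-kB in the cytoplasm, Nfkbiz a nuclear cofactor, and Chuk and Ikbkg parts of the IkB kinase. Nfkbiz was at 95.4 CPM in siJunb, 66.6 CPM in siH1f0 and 85.4 CPM in siControl as group means. Fitted to 4 libraries at a time, 1 gene rose in siJunb and 2 fell in siH1f0 against siControl, and with each library left out the counts were 0 to 6 and 0 to 7. In the order of the 3 comparisons, total counts alone gave 3, 3 and 6 calls in these directions and the replicate block 3, 2 and 7. The list medians were 0.05 and -0.10 against siControl, against 0.00 over all genes.

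**Figure D4:**
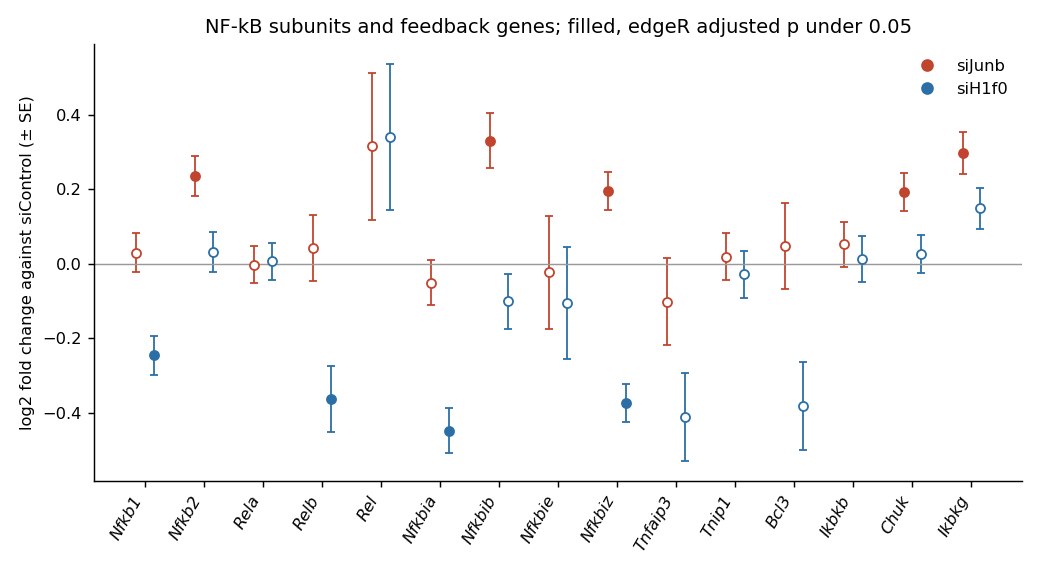
Log2 fold change (vertical axis, ± SE) of 15 NF-kB subunit and feedback genes in siJunb and siH1f0, each against siControl; filled points have an edgeR adjusted p under 0.05. In siJunb 5 genes are filled, all above 0, and in siH1f0 4 are filled, all below 0.

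Among 16 tested upstream cytokine and receptor genes 5 rose in siJunb against siControl: Ifngr2 (0.35), Tnfrsf1b (0.33), Pdgfra (0.27), Il1rap (0.25) and Myd88 (0.24), beside 8.63% of all genes called higher. In siH1f0 against siControl 3 rose: Il1r1, the signalling IL-1 receptor gene (0.53), its partner Il1rap (0.43) and Ifngr1 (0.23), beside 2.27% of all genes. The cytokine genes Il1a, Il1b and Tnf themselves had no more than 6 counts in any library. By total counts alone 2 of the 16 rose in siJunb, and with each library left out 0 to 8 did, against 0 to 5 in siH1f0. In siH1f0 against siJunb 2 of the 16 were higher and 5 lower, beside 12.2% and 13.8% of all genes. By total counts alone 4 were higher and 3 lower, and in a fit to those groups alone 5 and 7. Among 9 mRNA decay regulators Zfp36, which encodes tristetraprolin, a protein that destabilises AU-rich mRNAs, rose in siJunb (0.42, edgeR adjusted p = 0.00868). Hnrnpd, another AU-rich element binder, fell in both knockdowns (-0.40 in siJunb and -0.27 in siH1f0), and Zfp36l1 fell in siH1f0 (-0.23). Over all genes 7.82% were called lower in siJunb and 4.27% in siH1f0. The siH1f0 calls of Hnrnpd and Zfp36l1 were lost in a fit to those groups alone. In siH1f0 against siJunb 3 of the 9 were lower, Zfp36, Zfp36l1 and Zc3h12a, where 13.8% of all genes were called lower.

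AU-rich elements are built on the pentamer ATTTA in the 3' untranslated region. In the GENCODE M21 transcripts (GRCm38), read on the sense strand in the longest 3' untranslated region of each gene, Cxcl1 held 7 ATTTA in 592 bases and Ccl20 9 in 1050 bases. Among genes with regions between 0.8 times that length and that length divided by 0.8, 0.573% and 0.575% held at least as many. Cxcl5 held 5, Cxcl12 4, Ccl7 2, Cxcl16 2, Ccl2 1 and Cx3cl1 1. The shares of similar-length genes with at least as many were 9.61% for Cxcl5, 17.5% for Ccl7, 34.8% for Ccl2, 60.3% for Cxcl16, 89.2% for Cx3cl1 and 89.7% for Cxcl12. The longer TTATTTATT, which contains ATTTA, occurred at 2 copies in Cxcl1 and 1 in Cx3cl1, and at 0 in Ccl20 and the other members. Among genes of similar length, 4.08% for Cxcl1 and 9.56% for Cx3cl1 held any. The members that differed most between the knockdowns held 7 copies of ATTTA (Cxcl1), 2 (Ccl7) and 1 (Ccl2).

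Markers of other cells were set beside these results. Csf1r, a macrophage receptor gene, was higher in siJunb than in siControl (0.628 CPM against 0.242 CPM; log2 fold change 1.39, edgeR adjusted p = 0.0276), and it was the 1 leukocyte marker of 4 tested that passed there. Its call was lost in a fit to those groups alone (adjusted p = 0.0555) and without any 1 siJunb or siH1f0 library (0.0639 to 0.186), and DESeq2 gave it no adjusted p. Between the knockdowns Csf1r and Cd14 were lower and Lyz2 higher in siH1f0. Of 7 tested cardiac genes, Actc1, cardiac alpha-actin (-2.43), and Myl7, the atrial myosin light chain (-1.63), fell in siJunb against siControl. Nppb, the gene of a natriuretic peptide, rose (1.01, edgeR adjusted p = 0.0229), and 4 did not pass. Over all genes 7.82% were called lower and 8.63% higher there. In siH1f0 against siControl 0 of the 7 passed, beside 2.27% of all genes called higher and 4.27% lower. The log2 fold changes there were -0.12 for Actc1, 0.14 for Myl7, 0.04 for Myh7, 0.38 for Myh6 and -0.32 for Nppb. In siH1f0 against siJunb 4 of the 7 were higher, Actc1 (2.30), Myl7 (1.77), Myh7 (0.85) and Myh6, beside 12.2% of all genes. Myh6 was at 10.98 CPM in siH1f0 and 6.54 CPM in siJunb (0.69, edgeR adjusted p = 0.00266). Nppb was lower in siH1f0 (-1.33), beside 13.8% of all genes. Of 9 tested fibroblast genes Dcn and Pdgfra rose in siJunb against siControl (1.68 and 0.27), beside 8.63% of all genes. Dcn and Col1a2 rose in siH1f0 against siControl (0.65 and 0.34), beside 2.27%, and 0 fell in either. Total counts alone, only the 4 libraries compared and the replicate block each left 1 rise in siJunb. Only the 4 libraries compared left 1 in siH1f0. Between the knockdowns the genes split: Col1a2 and Fn1 were higher in siH1f0, and Pdgfra, Pdgfrb, Vim and Dcn were lower. The part of these shifts in the chemokine results was not tested.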

How the data were processed

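Poly(A) RNA was sequenced in 6 libraries, 2 each for siJunb, siH1f0 and siControl, grouped by the sample titles. For each gene symbol the authors deposited raw counts of reads; HISAT2, Subread and featureCounts on mm10 are named in the submitters' processing notes, without versions. Sources used here do not give the annotation, the strand setting or the handling of reads with several matches. The gene length column, an other value per the file headers, was used for RPKM.

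The main test was run with edgeR 4.0.16 (R 4.3.3), using TMM factors, filterByExpr (13427 of 24516 genes left), and the quasi-likelihood F test with group as the only term over 6 libraries (3 residual degrees of freedom), Benjamini-Hochberg adjusted over all tested genes. SEs come from the F statistic. CPM use library totals. For single values, 2 libraries a group allow no two-sided exact permutation p smaller than 0.333. Alternatives were DESeq2 1.42.0, limma-voom 3.58.1, RLE factors, total counts, no count filter, genes averaging 5 CPM or more, only the 4 libraries compared, a replicate block, and each library left out. The method was tested on simulated counts with known changes, in the order of the 3 comparisons above. It called 50%, 54% and 54% of 1.25-fold changes and 88%, 92% and 80% of 2-fold changes. Of 166, 162 and 167 calls, 9, 8 and 14 were false. Of 24516 symbols 23587 matched RefSeq GRCm38.p6, the source of the coordinates.

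The members, gene lists and tests were chosen with earlier results of these data known. Named genes were the members, the siRNA targets, up to 3 called genes per list with the smallest p (the 2 highest in CPM for a list with none), and the 2 nearest patterns per member whose group means spanned at least 0.5 on the log2 scale. Genes that complete a count of 5 or fewer, or are given as receptors, cytokines, proteases, silent neighbours or markers at 0, were named after their values were seen. For the likeness measure 0.5 was added to each count.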

Additional observations from a re-analysis of the deposited data

How the results depend on the processing

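Directions of the members held in most fits. Of 276 refits of single members, 240 kept direction and side of the threshold, 26 lost a call, 2 gained one and 8 changed sign. Only results called with all libraries could lose a call, so the 26 are a larger share of those than of the 276. Refits of Cxcl16 and Cxcl5, never called, count among the 240 where they kept direction. The sign changes were Ccl2 in siJunb against siControl (without siJunb 2 or siControl 2; -0.158 to 0.255 over the libraries left out) and Cxcl16 in siJunb against siControl (without siJunb 2; -0.121 to 0.266), in siH1f0 against siControl (without siH1f0 2 or siControl 1; -0.0316 to 0.103) and in siH1f0 against siJunb (without siJunb 2 or siH1f0 1; -0.226 to 0.161), where total counts only also turned it (0.0198). The number of members called went to 1, 1 and 2 with a mean of at least 5 CPM, against 3, 3 and 5, because 2 members were left to test. In siH1f0 against siControl it was 1 with only the 4 libraries compared and 1 with the replicate block. Without each library in turn it ranged from 1 to 4, from 0 to 3 and from 3 to 5. The number of genes called over all genes, 2209, 879 and 3484, became 1094, 325 and 6416 with only the 4 libraries compared; siH1f0 against siControl had 1921 calls with no count filter and 550 with the replicate block. Without each library it ran from 352 to 5521, from 116 to 4932 and from 1304 to 6435. The cause of these shifts was not tested.

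The replicate numbers were not shown to pair the libraries: same-numbered libraries had correlated deviations of 0.0627, 0.0477 and -0.0412 over 13427 genes. With the replicate block the calls over all genes were 1684, 550 and 2919, and Ccl2 and Cxcl12 in siH1f0 against siControl lost their calls (adjusted p = 0.0537 and 0.0535), as did Cx3cl1 in siH1f0 against siJunb (0.0519). Replicates differed by a chi-square per degree of freedom of 3.82 in siJunb, 3.86 in siH1f0 and 74.7 in siControl, while the SD of their log2 ratio was 0.317, 0.284 and 0.312. Depth limits Cxcl5 and Ccl20 (at most 19 counts a library) and, less so, Cxcl16 (at most 58).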
